A study of Mus musculus with 18 samples.

Results

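Cytochromes P450 of families 1 to 3 were followed in the livers of mice that lack 1 copy of Otub2, a deubiquitinating enzyme, and in wild-type livers. The genes were taken by symbol: every row of the liver count table named Cyp, a family number of 1, 2 or 3, a subfamily letter and a gene number. This gave 58 of the 55291 rows. Of these 58, 44 had at least 1 count in a liver, 22 reached a mean of 10 CPM (a gene's counts scaled to a library total of 1000000) over the livers, and 21 had enough counts to be tested.

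The study sequenced RNA from liver and pancreas of Otub2 knock-out mice and of controls. The liver data hold 5 libraries from heterozygous mice (genotype OTUB2 +/-, called HET here) and 2 from wild-type mice (OTUB2 +/+, called WT). No homozygous liver was analysed here. The pancreas data hold 3 OTUB2 -/- libraries (HOM), 5 HET and 3 WT. The labels give normal housing and name no drug or diet. Strain, age and the design of the Otub2 allele are not given in the labels, and sex is given for the pancreas libraries but not for the livers. Nor do the labels say that each library is a separate animal. The p-values therefore measure the spread between these libraries, which may in part be technical.

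P450 enzymes of families 1 to 3 are heme proteins of the endoplasmic reticulum that insert an oxygen atom into their substrate, using electrons passed on by P450 reductase and cytochrome b5. In hepatocytes they oxidise drugs, plant toxins, steroids and fatty acids, and many are switched on by the receptors AHR, CAR and PXR, mostly in hepatocytes around the central vein. Several mouse genes of the Cyp2a, Cyp2c and Cyp2d clusters are close tandem copies, and some are expressed at different levels in male and female liver under the control of growth hormone.

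The promoters below are shown because Cyp2a4 and Cyp2a5 had opposite differences between the genotypes, and because Cyp2c29 and Cyp2c50 were both highest in the same liver. They are the RefSeq sequences of build GRCm38.p6, from 250 bases before to 50 bases after the annotated start, all on the plus strand and written 5′ to 3′. Capitals mark TATAAA, the core of a TATA box, and TGACCT or its reverse complement AGGTCA, the core letters that many nuclear receptors bind. Cyp2a4 lies at chr7:26306942-26307241, Cyp2a5 at chr7:26835089-26835388, Cyp2c29 at chr19:39286835-39287134 and Cyp2c50 at chr19:40089429-40089728.
Cyp2a4: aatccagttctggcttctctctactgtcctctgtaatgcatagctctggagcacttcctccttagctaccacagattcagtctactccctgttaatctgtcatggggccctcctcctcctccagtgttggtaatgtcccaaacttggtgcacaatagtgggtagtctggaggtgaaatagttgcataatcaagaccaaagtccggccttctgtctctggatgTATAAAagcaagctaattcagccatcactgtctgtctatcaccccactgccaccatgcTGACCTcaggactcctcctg
Cyp2a5: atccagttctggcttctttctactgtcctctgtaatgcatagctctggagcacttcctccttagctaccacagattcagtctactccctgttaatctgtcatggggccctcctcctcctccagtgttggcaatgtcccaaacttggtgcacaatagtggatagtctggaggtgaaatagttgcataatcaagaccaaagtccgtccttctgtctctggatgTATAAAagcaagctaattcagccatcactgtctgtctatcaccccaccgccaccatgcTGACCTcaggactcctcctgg
Cyp2c29: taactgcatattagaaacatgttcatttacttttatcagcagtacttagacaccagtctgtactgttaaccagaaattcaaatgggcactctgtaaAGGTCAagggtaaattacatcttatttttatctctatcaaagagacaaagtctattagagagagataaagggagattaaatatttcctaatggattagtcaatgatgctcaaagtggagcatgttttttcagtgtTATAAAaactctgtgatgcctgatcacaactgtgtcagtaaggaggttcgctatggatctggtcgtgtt
Cyp2c50: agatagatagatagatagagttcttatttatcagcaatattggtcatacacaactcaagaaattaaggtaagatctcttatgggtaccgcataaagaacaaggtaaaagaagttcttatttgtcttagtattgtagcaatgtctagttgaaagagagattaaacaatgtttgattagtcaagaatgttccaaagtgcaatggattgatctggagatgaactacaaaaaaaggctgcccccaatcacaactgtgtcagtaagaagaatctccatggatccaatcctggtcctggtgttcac

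The Cyp2a4 and Cyp2a5 promoters were identical at 97.7% of 301 aligned positions, with TATAAA 28 and 29 bases before the start and TGACCT downstream of it in both. Cyp2c29 and Cyp2c50 were identical at 60.4% of 323 aligned positions. Cyp2c29 held TATAAA 19 bases before its start and AGGTCA further upstream, and none of the searched letters was in the Cyp2c50 window. RefSeq promoters were matched for 50 of the 58 genes. On either strand, TATAAA was in 25 of these 50 windows and in 13.6% of all 32851 promoters, and TGACCT was in 36.0% against 16.3%. TGTTTAC, which FOXA factors bind, was in 12.0% against 3.65%. GCGTG, the core of an AHR site, was in 18.0% against 32.4%, and TTCNNNGAA, the STAT site, in 4.00% against 8.30%. None of the searched motifs contains another. Copies that share a promoter sequence count several times in the shares for the P450 genes, and a match is a run of letters, not a measured binding site.

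The liver libraries held between 264660 and 1686234 counts in HET and 155201 and 342609 in WT. HET 5 was the deepest and WT 1 the shallowest, so WT values of rare genes rest on very few counts. HET 5 also stood apart in other ways: the repeat-rich gene models Gm10800 and Gm10801 had 0 counts there, against 854 to 1944 CPM of Gm10800 in the other 6 livers. It held all 94 counts of the acinar enzyme Ctrb1, and 84 counts of the bile duct keratin Krt19, which had 0 or 1 in each other liver. The reads come from transcript 3′ ends, so CPM does not grow with transcript length. How well the end of each gene was captured is not known, so levels of different genes are compared only as counted. Otub2 itself had 1, 0, 1, 1 and 2 counts in HET livers 1 to 5 and 1 and 0 counts in the WT livers, too few to check the genotypes. The 10 hepatocyte marker genes, among them Alb and Apoa1, summed to 103380.1 to 114385 CPM in HET and to 121094 and 132705 CPM in WT. Singly they went both ways: of 9 tested, 5 had a positive and 4 a negative log2 fold change, with a median of 0.07. Alb averaged 22737 ± 10336 CPM in HET and 22865 ± 5489 CPM in WT, and Apoa1 25815 ± 5592 CPM and 33497 ± 3524 CPM. In whole liver, fewer cells of a type and less RNA per cell cannot be told apart.

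In total the 58 genes took 16335, 16272, 14733, 16319 and 21085 CPM in HET livers 1 to 5, against 15045 and 10983 CPM in WT livers 1 and 2. HET 5 was the highest and WT 2 the lowest, and WT 1 lay within the HET values. Cyp2e1 and the Cyp2d genes made up most of each sum. Without them the remaining genes summed to 5367 ± 1123 CPM in HET (SD, n = 5) and 4017 ± 233 CPM in WT (SD, n = 2).

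**Figure D1:**
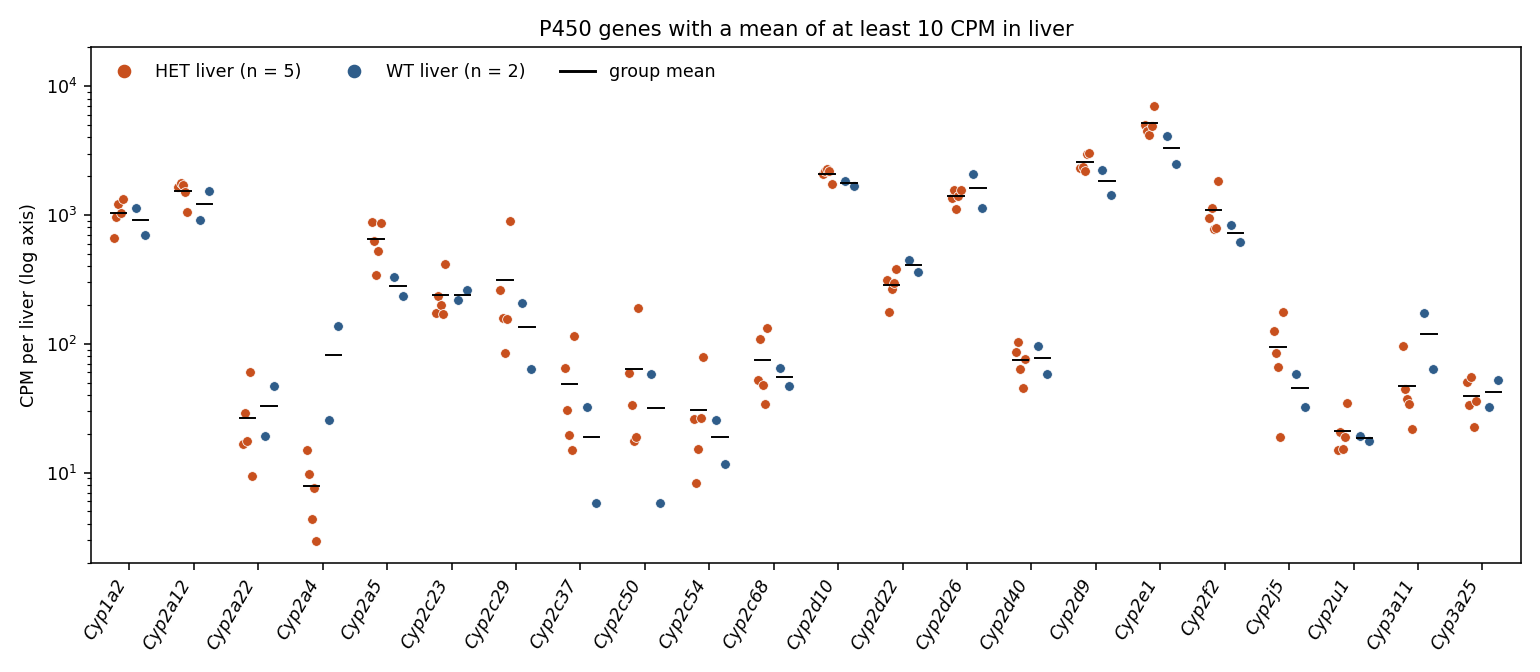
CPM per liver on a log axis for the 22 P450 genes with a mean of at least 10 CPM, with HET livers in orange (n = 5), WT livers in blue (n = 2) and a black line at each group's mean. Levels run from 2.97 CPM (Cyp2a4 in HET 5) to 7016 CPM (Cyp2e1 in HET 5), and the 2 groups overlap for all but Cyp2a4, Cyp2a5 and Cyp2e1 among the 21 tested genes.

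Across the genome, HET and WT livers were compared with edgeR's quasi-likelihood test over 4803 genes, with Benjamini-Hochberg adjustment over all of them and a threshold of 0.05. It called 0% of the genes, and 0 of the 21 P450 genes tested. At an unadjusted p under 0.05, which 10.3% of all genes met, there were 4 P450 genes: Cyp2a5 and Cyp2e1 with higher levels in HET, like 5.39% of all genes, and Cyp2a4 and Cyp3a11 with lower ones, like 4.96%. DESeq2 called 0.333% of the genes, which were 16, and 1 P450 gene, Cyp2a4. The fitted difference was positive for 15 of the 21 P450 genes and negative for 6, with a median log2 fold change of 0.43. Over all genes tested 52.1% were positive, and the median was 0.03. In simulated counts of these 7 libraries the edgeR test called 11.2% of genes changed 2-fold, 77.6% changed 4-fold and 98.5% changed 16-fold. How far these shares hold for the measured livers, where single libraries stood apart from the rest, was not tested.

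Single livers stood out in many of the P450 genes. HET 5 was the highest of the 7 livers for 11 of the 21 tested P450 genes, against 21.1% of all genes tested. WT 2 was the lowest for 8 of the 21, against 13.4% of all genes. Over the 5 HET livers the coefficient of variation of the P450 genes had a median of 39.7%, between 10.2% for Cyp2d10 and 114% for Cyp2c50, and a median of 35.2% over all genes tested.

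**Figure D2:**
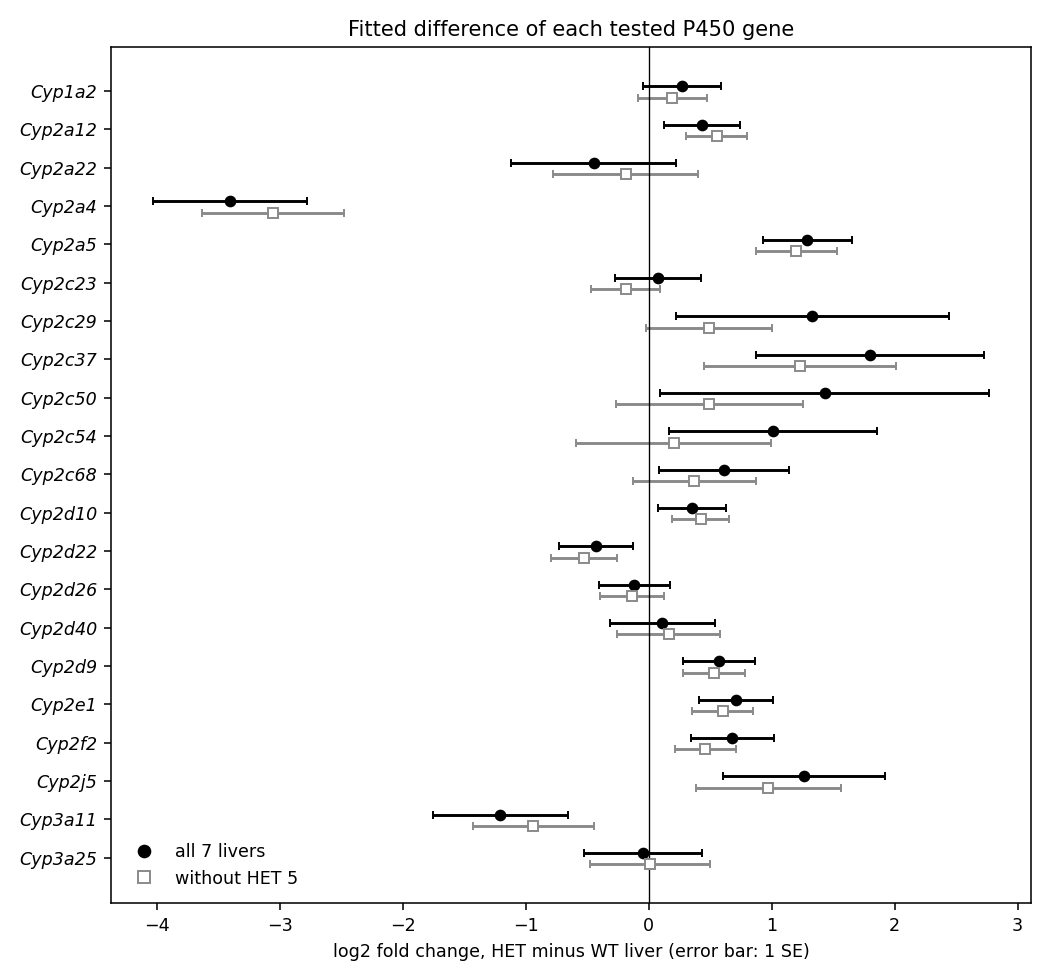
Fitted log2 fold change of HET minus WT liver for the 21 tested P450 genes, with bars of 1 standard error, for all 7 livers (black circles) and without HET 5 (grey squares). Cyp2a4 stands farthest from 0 at -3.41, and without HET 5 Cyp2c29, Cyp2c37, Cyp2c50, Cyp2c54 and Cyp2c68 move toward 0 while Cyp2c23 crosses to -0.19.

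In family 1, Cyp1a2 was the only gene with a level above 10 CPM. Cyp1a2 (9:57676937-57683703 in mm10, minus strand), an AHR target of pericentral hepatocytes that oxidises caffeine and aromatic amines, had 663, 962, 1206, 1035 and 1335 CPM in HET livers 1 to 5, against 1140.5 and 698 CPM in the WT livers. The WT livers lay inside the HET range, with HET 1 the lowest and HET 5 the highest of all. This gave a log2 fold change of 0.27 ± 0.32 (SE; edgeR adjusted p = 0.826), of 0.76 without WT 1 and of -0.05 without WT 2. Cyp1a1, which AHR ligands induce strongly, had 4 counts in all livers together, and Cyp1b1, an AHR target mostly found outside the liver, had 2.

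The Cyp2a genes lie in a cluster on chromosome 7 and were dominated by Cyp2a12, which hydroxylates testosterone and secondary bile acids in the mouse. Their sum was 2552, 2442, 2067, 2093 and 1936 CPM in HET livers 1 to 5, against 1295 and 1947 CPM in the WT livers. Only HET 5 and WT 2 crossed over, and by little: WT 1 was below every HET liver. With the subfamily summed before the fit, the log2 fold change was 0.55 ± 0.28 (edgeR adjusted p = 0.523), and it was 0.86 without WT 2. Cyp2a12 averaged 1534 ± 284 CPM in HET and 1224 ± 428 CPM in WT (SD, n = 5 and 2) and made up between 54.7% and 82.4% of the HET sums and 71.1% and 78.4% of the WT sums.

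Beneath that sum, Cyp2a4 and Cyp2a5 differed in opposite directions. Cyp2a4 (7:26307169-26315088 in mm10, plus strand), a testosterone hydroxylase that is higher in female than in male mouse liver, had 14.9, 9.70, 4.38, 7.56 and 2.97 CPM in HET livers 1 to 5, against 25.8 and 137 CPM in WT livers 1 and 2. These are 8, 7, 2, 2 and 5 counts in HET and 4 and 47 counts in WT. All HET livers were below both WT livers, but WT 2 held most of the difference and WT 1 rested on 4 counts. In edgeR the log2 fold change was -3.41 ± 0.63, with an adjusted p of 0.0681, just short of the threshold.

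Cyp2a4 passed the threshold under several other settings: DESeq2 gave an adjusted p of 0.00349, edgeR without the filter on low counts 2.04e-05, and edgeR with a filter at a mean of 10 CPM 0.0343. The share of all genes called was 0.307% with no filter and 0.103% with the filter at 10 CPM. It also passed in edgeR without HET 5 (adjusted p = 0.0335, with 0.142% of genes called), and without WT 1 (adjusted p = 0.0141, with 0.0686% called). Without WT 2 the log2 fold change was -1.64 ± 1.35 and the edgeR adjusted p was 0.814, with 0% of genes called, so the size of the Cyp2a4 difference and its calls rested on 1 liver.

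Cyp2a5 (7:26835305-26843548 in mm10, plus strand), the coumarin hydroxylase that also oxidises nicotine and bilirubin, had 884, 632, 342, 525 and 865 CPM in HET livers 1 to 5, against 329 and 236 CPM in the WT livers. Every HET liver was above both WT livers, although HET 3 was above WT 1 by little. The fitted log2 fold change was 1.29 ± 0.36, with an edgeR adjusted p of 0.247. It was 1.63 ± 0.51 without WT 1 and 1.05 ± 0.49 without WT 2 (edgeR adjusted p = 0.372 and 0.775). With no filter on low counts the edgeR adjusted p was 0.0137 at a log2 fold change of 1.45, while the median of all genes stood at 0.43 in that fit.

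The pair can also be read within each liver, where depth and scaling cancel. Cyp2a4 was 1.66%, 1.51%, 1.27%, 1.42% and 0.342% of the counts of the pair in HET livers 1 to 5, against 7.27% and 36.7% in the WT livers. The 95% Wilson intervals, which cover counting error only, ran from 0.842 to 3.23% in HET 1 and from 0.348 to 4.50% in HET 3. They ran from 2.86 to 17.3% in WT 1 and from 28.9 to 45.3% in WT 2, so WT 1 overlapped most HET livers and WT 2 overlapped none. Close copies can exchange reads: of 50-base windows in the last 300 bases of the Cyp2a4 transcript, 22.3% also occur in Cyp2a5, and none of those of Cyp2a5 occur in Cyp2a4. Cyp2a22 averaged 26.7 ± 20.2 CPM in HET and 33.0 ± 19.4 CPM in WT, and it overlaps the pseudogene Cyp2a21-ps on the other strand.

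**Figure D3:**
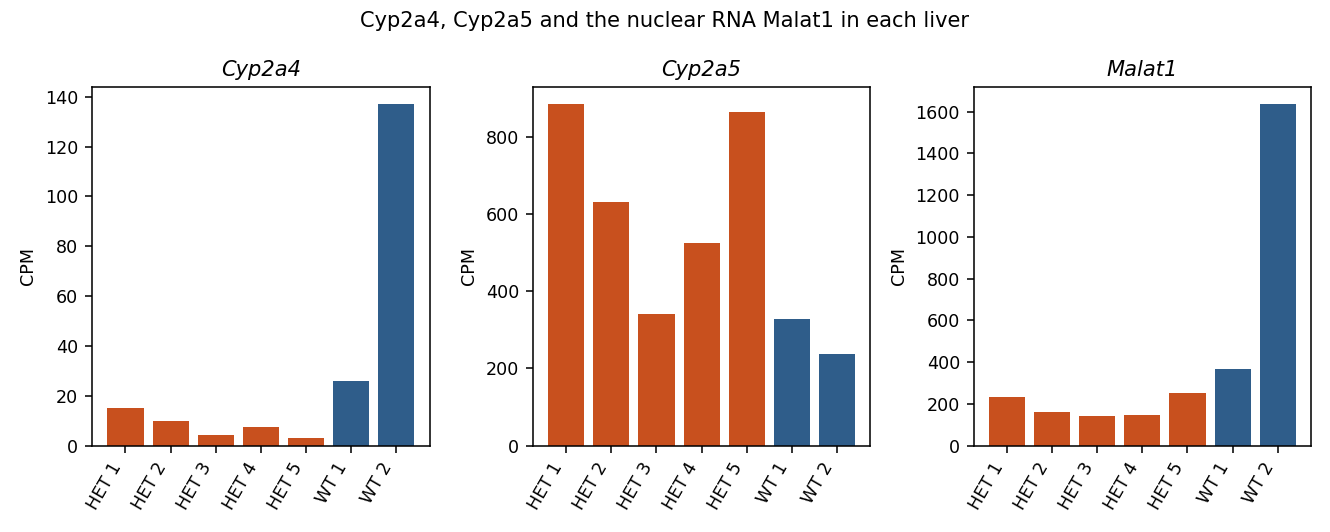
CPM of Cyp2a4, Cyp2a5 and the nuclear RNA Malat1 in each liver, 1 bar per library, with HET in orange and WT in blue. Cyp2a4 and Malat1 are both highest in WT 2 (137 and 1635 CPM), and Cyp2a5 is lowest there (236 CPM).

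Other measures were read beside Cyp2a4. Malat1, a nuclear RNA, had 231, 161, 140.3, 147 and 249.7 CPM in HET livers 1 to 5, against 367 and 1635 CPM in the WT livers (log2 fold change -2.33 ± 0.39, edgeR adjusted p = 0.0681). Like Cyp2a4 it was highest in WT 2, but among the HET livers it was highest in HET 5, where Cyp2a4 was lowest. A list of 10 measured RNAs for RNA quality, which holds mitochondrial RNAs, nuclear RNAs and repeat-rich gene models, summed to 1265 to 3555 CPM in HET and to 4568 and 6074 CPM in WT. Its lowest sum was that of HET 5, where Gm10800 and Gm10801 had 0 counts, and all 9 tested had a negative log2 fold change, with a median of -0.87. In the edgeR fit with all livers, none of the tested genes known to differ between the sexes passed the threshold. Of 10 tested genes that are higher in male mouse liver, 10 had a positive log2 fold change, with a median of 0.98, and their list summed to 3460.2 to 6637 CPM in HET and to 2443 and 3679 CPM in WT. Hsd3b5, with the smallest p of that list, had 108 to 278 CPM in HET and 77.3 and 26.3 CPM in WT (log2 fold change 2.00 ± 0.50, edgeR adjusted p = 0.219). It passed the threshold with DESeq2, where 0.333% of all genes were called. With no filter, where 0.307% were called, it passed together with Selenbp2 of that list. Slco1a1, an organic anion transporter of that list, had 226 to 307 CPM in HET and 155 and 90.5 CPM in WT (log2 fold change 1.30 ± 0.34, edgeR adjusted p = 0.242). Of 13 genes higher in female liver, 10 had 0 counts in every liver and Cyp2a4 was the only one tested. Xist had 0 counts in all 7 livers, which allows up to 0.721 CPM over all of them pooled. For a single liver 0 counts allow more, up to 1.78 CPM in HET 5, 8.76 CPM in WT 2 and 19.3 CPM in WT 1. The Y-linked genes summed to 6.52 to 18.6 CPM in HET and 11.7 and 12.9 CPM in WT. The part of RNA quality and of sex-dependent expression in the Cyp2a4 difference was not tested.

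In the Cyp2c subfamily the spread between livers was larger than the difference between genotypes. The genes of this cluster on chromosome 19 include epoxygenases and hydroxylases of arachidonic acid. Their sum was 666, 619.6, 392, 427 and 1861 CPM in HET livers 1 to 5, against 625 and 420.3 CPM in the WT livers. HET 5 stood far above the rest, while the other HET livers and both WT livers shared a range. The HET mean was 793 ± 609 CPM with HET 5 and 526 ± 137 CPM without it (SD, n = 4), and the WT mean was 523 ± 145 CPM. The log2 fold change of the sum was 0.68 ± 0.56 (edgeR adjusted p = 0.713) and 0.13 ± 0.28 without HET 5 (edgeR adjusted p = 0.886). It was 1.06 ± 0.75 without WT 1 and 0.39 ± 0.73 without WT 2.

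The single Cyp2c genes showed the same liver. Cyp2c29 (19:39269405-39330713 in mm10), a target of CAR and the leading gene of the sum in HET 5, had 262, 158, 85.5, 155 and 897 CPM in HET livers 1 to 5, against 206 and 64.2 CPM in the WT livers. Cyp2c50, a close copy of Cyp2c37 and Cyp2c54, had 59.6, 33.3, 17.5, 18.9 and 191 CPM in HET and 58.0 and 5.84 CPM in WT. Cyp2c37, an arachidonic acid hydroxylase, had 65.1, 30.5, 19.7, 15.1 and 114 CPM in HET and 32.2 and 5.84 CPM in WT. In each of these genes HET 5 was the highest and WT 2 the lowest liver, with the other HET livers on both sides of WT 1. Their log2 fold changes were 1.33 ± 1.11, 1.43 ± 1.34 and 1.80 ± 0.93, and those without HET 5 were 0.49, 0.49 and 1.23. The WT livers moved these values as well: they were 2.42, 3.64 and 3.26 without WT 1, and 0.64, 0.26 and 0.74 without WT 2. The lowest edgeR adjusted p of these fits was 0.493.

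Cyp2c54 averaged 30.9 ± 27.6 CPM in HET and 18.7 ± 9.97 CPM in WT, and Cyp2c68 averaged 75.5 ± 43.4 CPM in HET and 55.6 ± 12.5 CPM in WT. Of the 50-base windows at the 3′ end, 32.3% of Cyp2c68, 13.5% of Cyp2c54 and 9.96% of Cyp2c50 recur in another gene of the set, and 0% of Cyp2c29 and Cyp2c23. Cyp2c29 overlaps the pseudogene Cyp2c53-ps on the same strand, which had 0 counts in the livers. The part of shared reads in the height of HET 5 was not tested. Cyp2c23, an arachidonic acid epoxygenase that sits apart from the main cluster, averaged 239 ± 102 CPM in HET and 241 ± 30.8 CPM in WT, with 416 CPM in HET 5. Its log2 fold change was 0.07 ± 0.35, and -0.19 without HET 5. Cyp2c70, which makes muricholic acids in the mouse, had 20 counts in all livers together.

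**Figure D4:**
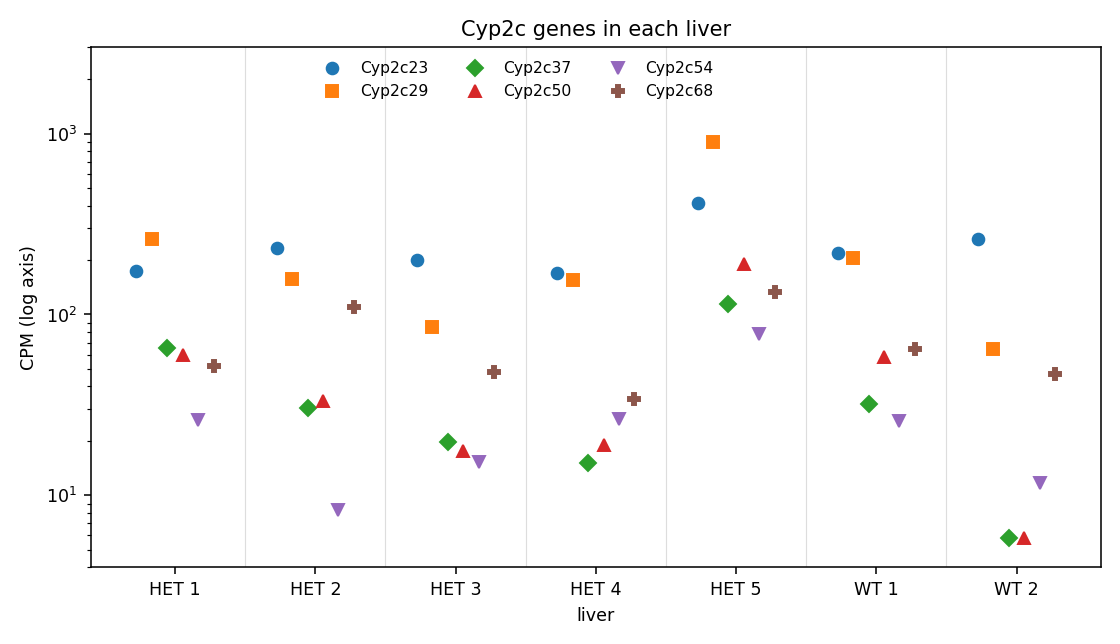
CPM on a log axis of the 6 named Cyp2c genes in each liver, HET 1 to 5 on the left and WT 1 and 2 on the right. All 6 are highest in HET 5, and Cyp2c29, Cyp2c37 and Cyp2c50 are lowest in WT 2, at 64.2, 5.84 and 5.84 CPM.

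The Cyp2d subfamily, whose human counterpart CYP2D6 handles many drugs, had the highest CPM together with Cyp2e1. Its sum was 6179.7, 6394, 5919, 6959.9 and 6805 CPM in HET livers 1 to 5, against 6727 and 4664 CPM in the WT livers. The HET livers lay close together, with WT 1 among them and WT 2 below. The log2 fold change of the sum was 0.27 ± 0.27 (edgeR adjusted p = 0.767), and it was 0.65 without WT 1 and 0.02 without WT 2.

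Cyp2d9, a testosterone hydroxylase that is higher in male mouse liver, had 2325, 2343, 2199, 3000.1 and 3039.9 CPM in HET livers 1 to 5, against 2249 and 1424 CPM in the WT livers. HET 4 and HET 5 were the highest, and HET 3 was below WT 1. Its fitted log2 fold change was 0.57 ± 0.29 (edgeR adjusted p = 0.517), with 1.03 without WT 1 and 0.27 without WT 2. As a share of the Cyp2d counts of a liver, Cyp2d9 was between 36.6% and 44.7% in HET, and 33.4% and 30.5% in WT 1 and WT 2. Cyp2d22 had the opposite order, with shares between 2.73% and 5.61% in HET and of 6.70% and 7.76% in WT, and averaged 286 ± 75.5 CPM in HET and 406 ± 63.0 CPM in WT (log2 fold change -0.43 ± 0.30, edgeR adjusted p = 0.657, and -0.17 without WT 1). Of 17 named genes in subfamilies with several named genes, the shares did not overlap between the groups for 3, which were these 2 and Cyp2a4. No such count was made over all genes, but in CPM the groups did not overlap for 18.0% of all genes tested. The shares within subfamilies were not tested.

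Cyp2d10 was the steadiest gene of all over the HET livers, at 2098 ± 214 CPM in HET and 1762 ± 114 CPM in WT (log2 fold change 0.35 ± 0.28). Cyp2d26 averaged 1399 ± 186 CPM in HET and 1612 ± 673 CPM in WT, with a log2 fold change of -0.12 ± 0.29 that was 0.48 without WT 1. Cyp2d40 averaged 74.7 ± 21.7 CPM in HET and 77.5 ± 27.1 CPM in WT. The ends of Cyp2d26, Cyp2d10 and Cyp2d9 share 26.7%, 13.5% and 9.16% of their windows with other genes of the set, so reads may have been split between them. The sum takes in reads given to another Cyp2d gene, but not reads left out of the counts.

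**Figure D5:**
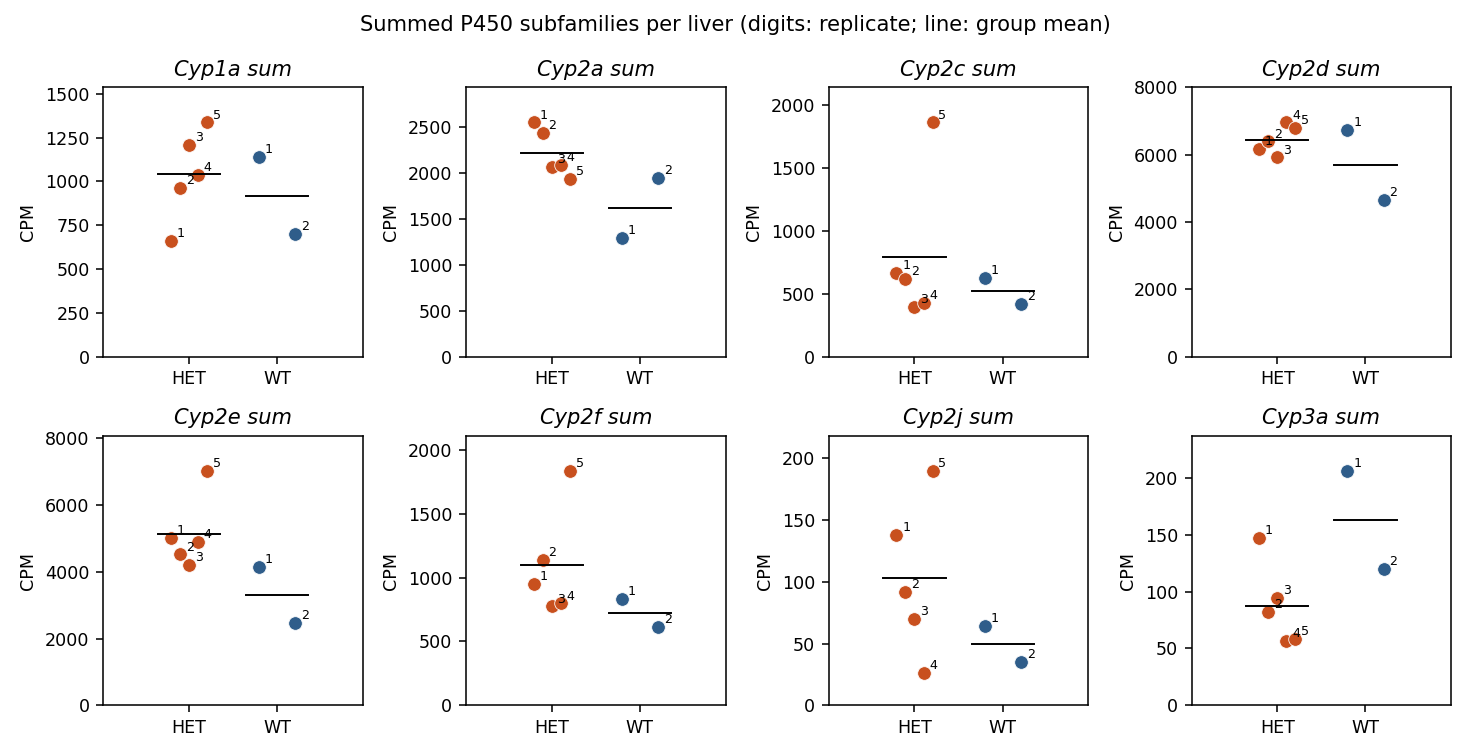
Summed CPM of 8 P450 subfamilies in each liver on linear axes from 0, with HET on the left (orange, n = 5) and WT on the right (blue, n = 2), digits for the replicate and a line at each group's mean. WT 2 is the lowest point for Cyp2d, Cyp2e and Cyp2f, HET 5 the highest for Cyp1a, Cyp2c, Cyp2e, Cyp2f and Cyp2j, and the HET and WT points are fully apart for Cyp2e alone.

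Cyp2e1 (7:140763739-140774987 in mm10, plus strand), the pericentral enzyme that oxidises ethanol and acetaminophen, was the most counted gene of the set and the only one of its subfamily. It had 5020.0, 4519, 4191, 4904 and 7016 CPM in HET livers 1 to 5, against 4137 and 2466 CPM in the WT livers. All HET livers were above both WT livers, but HET 3 and WT 1 were nearly level. Its log2 fold change was 0.71 ± 0.30, with an edgeR adjusted p of 0.434. It was 0.60 without HET 5, 1.23 ± 0.42 without WT 1 and 0.38 ± 0.39 without WT 2. The groups were apart for 3 of the 21 tested P450 genes, against 18.0% of all genes tested: HET was above WT for Cyp2a5 and Cyp2e1, as for 6.95% of all genes, and below it for Cyp2a4, as for 11.1%.

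Cyp2f2, which activates naphthalene and in liver is a periportal gene, had 947, 1135, 774, 797 and 1834 CPM in HET livers 1 to 5, against 831 and 613 CPM in the WT livers. HET 5 was high and WT 1 lay within the other HET livers. Its fitted log2 fold change was 0.68 ± 0.34 (edgeR adjusted p = 0.501) and 0.46 without HET 5. Cyp2j5, an arachidonic acid epoxygenase, had 125, 84.6, 65.8, 18.9 and 178 CPM in HET and 58.0 and 32.1 CPM in WT, with HET 4 below both WT livers and the other HET livers above them. Its log2 fold change was 1.26 ± 0.66 (edgeR adjusted p = 0.539), and 0.81 without WT 2. Cyp2u1, a fatty acid hydroxylase found in many tissues, averaged 21.0 ± 8.21 CPM in HET and 18.4 ± 1.28 CPM in WT and did not pass the filter on low counts.

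In family 3 the counted genes were low, and Cyp3a11 and Cyp3a25 made up most of them. The Cyp3a sum was 147, 81.8, 94.3, 56.7 and 58.7 CPM in HET livers 1 to 5, against 206 and 119.7 CPM in the WT livers. WT 1 was above every HET liver, and HET 1 was above WT 2. The log2 fold change of the sum was -0.77 ± 0.41 (edgeR adjusted p = 0.551), and -0.26 ± 0.54 without WT 1. Cyp3a11 (5:145854426-145879964 in mm10, minus strand), the main PXR target of mouse liver and an oxidase of steroids and many drugs, had 96.8, 44.4, 37.3, 34.0 and 21.9 CPM in HET livers 1 to 5, against 174 and 64.2 CPM in the WT livers. HET 1 again lay between the WT livers and the other 4 HET livers below both. Cyp3a11 had a log2 fold change of -1.21 ± 0.55, with an edgeR adjusted p of 0.466, and -1.81 ± 0.63 without WT 2. Without WT 1 it was -0.28 ± 0.68 (edgeR adjusted p = 0.920), and without HET 5 and WT 1 together -0.05 ± 0.57, so its size rested on WT 1. Cyp3a25 averaged 39.4 ± 13.1 CPM in HET and 42.4 ± 14.4 CPM in WT. The ends of Cyp3a11 and Cyp3a25 share no window with another gene of the set.

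Of the remaining genes, 22 had between 1 and 49 counts in all livers together and a mean under 10 CPM. Single livers could exceed this, as with Cyp2c40 at 27.7 CPM in HET 2. Among them were Cyp2b10, the classical CAR target, with 4 counts, Cyp2r1, the vitamin D hydroxylase, with 6, and Cyp2s1 with 13. The other 14 had 0 counts in every liver, which allows up to 0.818 CPM over the HET livers and 6.03 CPM over the WT livers. They were Cyp2b9, Cyp2b13, Cyp2b19, Cyp2b23, Cyp2c39, Cyp2c66, Cyp2j7, Cyp2j8, Cyp2j11, Cyp2j12, Cyp2j13, Cyp2w1, Cyp3a16 and Cyp3a44. The Cyp2b subfamily as a whole was therefore near the limit of detection.

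Genes that serve or control the P450 enzymes were read from the same edgeR fit, and 0 of them passed the threshold in any list. Of 8 tested electron carriers and their partners, 5 had a positive and 3 a negative log2 fold change, with a median of 0.63. Fdx1, the ferredoxin of mitochondrial P450 enzymes, averaged 270.3 ± 65.9 CPM in HET and 141 ± 55.3 CPM in WT (log2 fold change 1.05, edgeR adjusted p = 0.331). Cyb5a, cytochrome b5, averaged 824 ± 279 CPM in HET and 513 ± 139.8 CPM in WT (edgeR adjusted p = 0.463). Por, the reductase that feeds all the microsomal enzymes, had 2394, 1702, 1920.3, 1239 and 566 CPM in HET livers 1 to 5, against 838 and 1564 CPM in the WT livers. Por was lowest in HET 5, the liver in which most P450 genes were highest.

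Of 11 tested genes of heme synthesis and breakdown, 7 were positive and 4 negative, with a median of 0.28. Fech, which inserts iron into protoporphyrin to form heme, averaged 82.8 ± 40.0 CPM in HET and 41.2 ± 3.62 CPM in WT (edgeR adjusted p = 0.486). Of 21 transcription factors and nuclear receptors that act on P450 genes, 12 were positive and 9 negative, with a median of 0.01. Onecut1 averaged 41.4 ± 30.2 CPM in HET and 5.84 ± 8.26 CPM in WT (log2 fold change 2.40 ± 1.09, edgeR adjusted p = 0.472). Nr1i3, which encodes CAR, averaged 264 ± 84.9 CPM in HET and 299 ± 85.3 CPM in WT, and Nr1i2, which encodes PXR, averaged 186 ± 47.3 CPM in HET and 271 ± 91.6 CPM in WT. Of 7 tested targets of AHR, CAR and PXR outside the P450 genes, 3 were positive and 4 negative, with a median of -0.16.

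P450 genes outside families 1 to 3 were balanced, with 5 of 10 tested positive and 5 negative and a median of 0.10. Cyp7a1, the rate-limiting enzyme of bile acid synthesis, averaged 41.7 ± 29.8 CPM in HET and 4.38 ± 6.19 CPM in WT (log2 fold change 2.93 ± 0.93, edgeR adjusted p = 0.294). Other pericentral genes were positive in 9 of 13 and periportal genes in 10 of 15, with medians of 0.52 and 0.07. Acute-phase genes, whose rise in inflammation is known to accompany lower P450 expression, were positive in 19 of 20, with a median of 0.61. Their sum was 25258, 49722, 79541, 26441 and 19918 CPM in HET livers 1 to 5, against 25767 and 31511 CPM in the WT livers. HET 3 and HET 2 were the highest and HET 5 the lowest, and the total of the 58 P450 genes was lowest in HET 3 and highest in HET 5 among the HET livers. That total was nearly level in HET 2, HET 1 and HET 4, at 16272, 16335 and 16319 CPM. It was lowest of all in WT 2, at 10983 CPM. The part of the acute-phase response in the P450 levels was not tested.

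Among tested markers of other liver cells, 5 of 6 Kupffer cell genes, 3 of 4 endothelial genes and 2 of 3 stellate genes had a negative log2 fold change. Erythrocyte genes were 2 positive and 3 negative, the 1 tested bile duct gene was positive and the 1 tested leukocyte gene negative. Over all genes tested 52.1% were positive, and 0 of these markers passed the threshold. The Kupffer genes summed to 369 to 768 CPM in HET and to 747 and 773 CPM in WT, the endothelial genes to 61.4 to 192 CPM and 117 and 148 CPM, and the stellate genes to 77.7 to 134 CPM and 148 and 234 CPM. Erythrocyte genes summed to 1530.1 to 10848 CPM in HET and to 4549 and 6704 CPM in WT. Bile duct genes summed to 11.0 to 114 CPM in HET and 6.44 and 23.4 CPM in WT, and leukocyte genes to 24.1 to 45.7 CPM and 38.7 and 49.6 CPM. Pancreatic acinar genes summed to 98.4 to 192 CPM in HET and to 70.9 and 37.9 CPM in WT, so the groups did not overlap. Of these 12 genes 6 had 0 counts in every liver, and Cela1, with 113 ± 18.3 CPM in HET and 53.0 ± 25.4 CPM in WT (log2 fold change 1.25 ± 0.42, edgeR adjusted p = 0.317), was the only one tested. The part of cell composition in the P450 values was not tested.

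In pancreas, P450 genes of families 1 to 3 were rare. They summed to 85.4 to 197 CPM in HOM, 36.9 to 323 CPM in HET and 191 to 536 CPM in WT pancreas, on libraries of 49502 to 1326541 counts. Cyp2e1, the leading gene in liver, had 1 count in all 11 pancreas libraries together, and 18 of the 58 genes had any. The most counted was Cyp2s1, an epithelial P450, with 4 and 6 counts in HOM 10 and HOM 19 and 16, 320 and 150 counts in HET 9, HET 11 and HET 16. It had 0 counts in the other HOM and HET pancreata and in all 3 WT pancreata. As CPM these were 19.5 and 118 in HOM 10 and HOM 19 and 323, 241 and 224 in HET 9, HET 11 and HET 16, while 3 counts would be 36.9, 47.3 and 15.9 CPM in WT 11, WT 12 and WT 16. The genotypes were not compared by a test in pancreas, where these genes are given as a description.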

How the data were processed

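RNA from whole liver (5 HET, 2 WT) and pancreas (3 HOM, 5 HET, 3 WT) was made into bulk MARS-seq libraries, which read transcript 3′ ends, per the labels. The authors deposited whole-number counts per gene, 1 table per tissue. They call the counts corrected without saying for what, so p-values hold only if they stayed close to counts. The genome build was mm10 and the named tools were STAR and cutadapt, per the submitters' processing notes. Versions, annotation, strand use and barcode collapsing are not given in the sources used here.

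Libraries were assigned by the labels, and 0 columns were left over. CPM used each library's total. edgeR 4.0.16 in R 4.3.3 was run on the 7 livers: filterByExpr, TMM, estimateDisp and a robust quasi-likelihood fit with genotype, Benjamini-Hochberg adjusted over 4803 genes. Common dispersion was 0.125, a biological coefficient of variation of 35.4%, on 5 residual degrees of freedom. Subfamilies were summed in a table of 4790 rows and fitted likewise. The test was checked on simulated counts (0.219% of unchanged genes called). SE is the log2 fold change divided by the square root of F. Wilson intervals are at 95%, and a floor is 3 counts. Positions are from GENCODE mouse release 21 (mm10), which matched all 58 genes, and promoters are from RefSeq.

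Genes are named if they reach a mean of 10 CPM over the livers, or as the smallest p of a list. Members and the 20 lists were chosen with earlier results of these data known. Further genes named for their role were chosen after their values were seen. Alternatives were DESeq2 1.42.0, its size factors, scaling by total counts, no filter, a filter at a mean of 10 CPM, a fit that is not robust, a replicate block, leaving out each liver and, chosen after seeing the data, leaving out HET 5 and WT 1 together.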

Additional observations from a re-analysis of the deposited data

Results flagged for a closer look

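Within the HET livers, 1 library stood far from the other 4 in 4 Cyp2c genes and in the Cyp2c sum, and it was HET 5 each time. It had 416 CPM of Cyp2c23, 897 CPM of Cyp2c29, 191 CPM of Cyp2c50 and 78.3 CPM of Cyp2c54, and the sum was 1861 CPM. The gap to the next HET liver was 0.739, 0.782, 0.758, 0.741 and 0.813 of the whole HET range. In all, 28 genes and sums were looked at in this way and 5 stood out. Chance gives about 1 in 20, but these 5 are genes of 1 subfamily and their own sum in 1 library, so they are not separate cases. HET 5 is the deepest liver library, with 1686234 counts. It also had 0 counts of Gm10800, against 854 to 1944 CPM in the other 6 livers, all 94 counts of Ctrb1 and 84 counts of Krt19. The part of depth, of RNA quality and of other cell types in these values was not tested.

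Cyp2s1 had 486 counts in HET pancreas and 0 in WT pancreas, in data that no comparison here used. The HET counts came from 3 of 5 libraries, and 4 and 6 further counts came from HOM pancreata. The WT pancreata held 63483 to 188496 counts, and the HET pancreata that held most of the Cyp2s1 counts, HET 11 and HET 16, held 1326541 and 670588. The difference was not tested.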

How the results depend on the processing

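The number of genes called, 0 with all livers, was 16 with DESeq2, 57 with no filter, 6 with a mean of at least 10 CPM, and 0 to 6 when 1 liver was left out. Without HET 5 and WT 1 together it was 9. P450 genes called were 1, 2 and 1 in those 3 settings, 0 to 1 with 1 liver left out and 1 without both. Listed genes called were 3, 7 and 2, 0 to 2 and 3. No subfamily sum was called under any alternative run. Without 1 WT liver the lone WT liver is assumed to vary like the HET livers. The cause of these differences was not tested.

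The replicate numbers of the livers were not shown to pair them. After each group's mean log2 CPM was subtracted per gene, the deviations of same-numbered livers correlated at -0.025 and -0.027 in 2 pairs. The 2 WT livers deviate from their mean by equal and opposite amounts, so the pairs are not separate checks. With the replicate block 41 genes (0.854%) were called, 32 of them higher, and 1 P450 gene, Cyp2a5 (log2 fold change 1.54, edgeR adjusted p = 0.00997). HET 3, HET 4 and HET 5 had no same-numbered WT liver, so that fit compared only livers 1 and 2 of each genotype. The block gave Cyp1a2 and the Cyp1a sum -0.04, Cyp2c23 -0.12, Cyp2c54 -0.11, Cyp2d26 0.04 and Cyp3a25 0.00, on the other side of 0.

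Other small log2 fold changes also crossed 0. Cyp2c23 was -0.02 with total counts and -0.22 without HET 5 and WT 1, Cyp2d26 was 0.05 with no filter and 0.45 without both, and Cyp3a25 was 0.10 with no filter. With 1 liver left out, Cyp1a2 and the Cyp1a sum ran from -0.05 to 0.76, Cyp2a22 from -0.88 to 0.40, Cyp2c23 from -0.19 to 0.20, Cyp2d26 from -0.50 to 0.48, Cyp2d40 from -0.26 to 0.56 and Cyp3a25 from -0.21 to 0.39. Of the fits of single P450 genes, 287 kept direction and side of the threshold, 8 newly passed it and 20 turned. Total counts moved the median of all genes to -0.07 and no filter to 0.43. With 155201 counts in WT 1, 1 WT count of a rare gene decides its value.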
